A study of Mus musculus with 6 samples.

Results

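The regions examined here are the ATAC-seq peaks around 6 genes that encode regulators of the erythroid and megakaryocyte lineages, Klf1, Gata1, Gfi1b, Nfe2, Zfpm1 and Epor. All peaks that overlapped the body of a gene or the 30 kb on either side of it were taken, in mm10 coordinates and with the GENCODE M21 annotation. This gave 285 of the 438111 peaks in the 6 lists, which merged into 71 of 112852 regions. Zfpm1 held 19 of the 71 regions, Nfe2 17, Gfi1b 11, Klf1 9, Epor 9 and Gata1 6.

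ATAC-seq cuts accessible DNA with the Tn5 transposase, so that read density over a site reports how open the chromatin is. The 6 samples are 3 control and 3 MMF-treated samples of L-GMPs, the c-kit+ leukemic granulocyte-macrophage progenitors that serve as LSCs in the murine MLL-AF9 AML model. MMF (mycophenolate mofetil) is a prodrug that blocks IMPDH, the enzyme that commits purine synthesis to guanine nucleotides, and the comparison asks how chromatin accessibility of LSCs changes under that block. Both groups are labelled wild type, from blood, and were grown in RPMI1640 with 20% FBS and 10 ng/ml mouse IL3. The MMF samples had 24 hours of drug by their labels. The sources disagree on dose and time for this experiment. In both groups the leukemia was driven by an MLL-AF9 retrovirus that also marks cells with GFP, introduced into stem and progenitor cells of C57BL/6J mice before transplantation, and the cells were gated for GFP, c-kit, CD34 and CD16/32 and against Sca-1 and mature lineage markers, Ter119 of the erythroid lineage among them. The labels do not say which samples come from separate cultures or mice, so p-values here measure the spread between samples, which may be technical.

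The switch from progenitor to red cell or platelet is run by a small set of DNA-binding proteins. GATA1, with its cofactor FOG1 (encoded by Zfpm1), occupies GATA sites in both lineages, KLF1 binds CACCC boxes of globin and other erythroid genes, NF-E2 p45 (Nfe2) pairs with small MAF proteins in both lineages, and GFI1B is a repressor that both need. EPOR is the receptor through which erythropoietin keeps erythroid precursors alive. Granulocyte-macrophage progenitors normally lie past the branch to these lineages.

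The 5 sequences below are windows of 200 bp around the summits of the regions on which the results turn, shown for each gene except Gata1, which had no region of its own in all 6 lists. They were read from GRCm38 on the + strand, and capitals mark matches on either strand to AGATAA (a form of the GATA motif), TGATAA (its other form), CCNCACCC (the CACCC box), TGANTCA (NF-E2 and AP-1), GAGGAAGT (the PU.1 motif), TTGCNNAA (the C/EBP motif) or AACCACA (the RUNX motif). The Klf1 window lies in coding sequence, the Nfe2 window at the 5′ start of the gene, and the Gfi1b and Zfpm1 windows in introns. The Epor window lies upstream of the gene, for the most part in an intron of the neighbouring gene Rgl3.
Klf1, chr8:84903139-84903338: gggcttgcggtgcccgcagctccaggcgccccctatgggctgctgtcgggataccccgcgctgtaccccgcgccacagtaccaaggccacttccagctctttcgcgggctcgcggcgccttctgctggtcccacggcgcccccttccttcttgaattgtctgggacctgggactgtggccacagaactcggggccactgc
Gfi1b, chr2:28618894-28619093: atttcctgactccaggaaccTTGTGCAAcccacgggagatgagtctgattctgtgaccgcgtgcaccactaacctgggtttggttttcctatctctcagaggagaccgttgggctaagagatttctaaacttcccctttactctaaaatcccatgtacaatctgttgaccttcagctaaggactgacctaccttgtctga
Nfe2, chr15:103258390-103258589: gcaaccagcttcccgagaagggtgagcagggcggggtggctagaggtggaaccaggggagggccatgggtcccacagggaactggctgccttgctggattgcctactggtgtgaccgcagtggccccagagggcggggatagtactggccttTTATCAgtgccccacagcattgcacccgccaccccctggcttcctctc
Zfpm1, chr8:122294230-122294429: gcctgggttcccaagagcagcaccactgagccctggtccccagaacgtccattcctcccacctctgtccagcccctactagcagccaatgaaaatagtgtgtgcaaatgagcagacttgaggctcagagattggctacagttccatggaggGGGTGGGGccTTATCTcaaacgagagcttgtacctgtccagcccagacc
Epor, chr9:21969380-21969579: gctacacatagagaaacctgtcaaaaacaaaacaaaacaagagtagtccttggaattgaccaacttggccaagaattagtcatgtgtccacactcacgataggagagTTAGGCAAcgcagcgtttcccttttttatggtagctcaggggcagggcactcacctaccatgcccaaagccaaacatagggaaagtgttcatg

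The Gfi1b and Epor windows each held 1 match, to the C/EBP letters, and the Nfe2 window held 1 TGATAA match. The Zfpm1 intron window held a CACCC box and an AGATAA match next to each other. None of these letters occurred in the Klf1 window. Over the summit windows of the 71 regions, either GATA motif occurred in 11.3%, against 12.2% of the windows of all 112852 regions. The CACCC box occurred in 11.3% against 8.47%, TGANTCA in 12.7% against 16.0%, TTGCNNAA in 15.5% against 15%, AACCACA in 7.04% against 10.7% and GAGGAAGT in 2.82% against 8.29%. A match is a description of the letters and not evidence of binding. The windows of the 71 regions had a median GC content of 54.0%, against 49.5% in all regions.

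The deposited lists give each peak's fold enrichment and p, from which the number of reads over its summit was solved. Summit reads were then scaled so that the median of the 41182 regions with a peak in all 6 lists was the same in every sample, and they are called scaled reads below. Lists held 58496 to 63911 peaks in control and 80893 to 86556 in MMF samples, with a median of 14 to 19 summit reads per peak. The genome-wide background that the peak caller used was 0.620 to 0.729 reads in control and 0.676 to 0.909 in MMF samples. Total read counts are unknown, so precision is limited by these few reads and by 3 samples a group. A region without a peak in a list fell under the caller's cutoff there and was not necessarily closed.

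The choice of scale bears on every difference below. Dividing by the genome-wide background instead (the depth scale) adds 0.35 to each log2 difference, because the shared regions stood higher over background in MMF than in control samples. On the median scale, the median difference between MMF and control fell with the level of a region above the lowest class (-0.12), from 0.02 on the log2 scale in the second of 10 equal level classes to -0.49 in the highest class, where 97.5% of regions were below 0. Another scale, cyclic loess, takes out this trend, and the median difference over all shared regions was -0.19 on the median scale, 0.17 on the depth scale and -0.02 on the loess scale. A region is called higher or lower below where limma gave an adjusted p (Benjamini-Hochberg over all shared regions) under 0.05.

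At the 6 loci the MMF lists, which were longer, held more peaks than the control lists. The 3 control lists held 44, 44 and 42 of these peaks and the 3 MMF lists 57, 50 and 48. The groups did not overlap, with means of 43.3 ± 1.2 (SD, n = 3) and 51.7 ± 4.73 (SD, n = 3), and the two-sided exact permutation p was 0.1, the smallest that 3 against 3 samples allow. As a share of all peaks in a list the order was the opposite, with a mean of 0.0705% ± 0.00151 (SD, n = 3) for control lists against 0.0611% ± 0.00419 (SD, n = 3) for MMF lists (exact permutation p = 0.1).

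**Figure D1:**
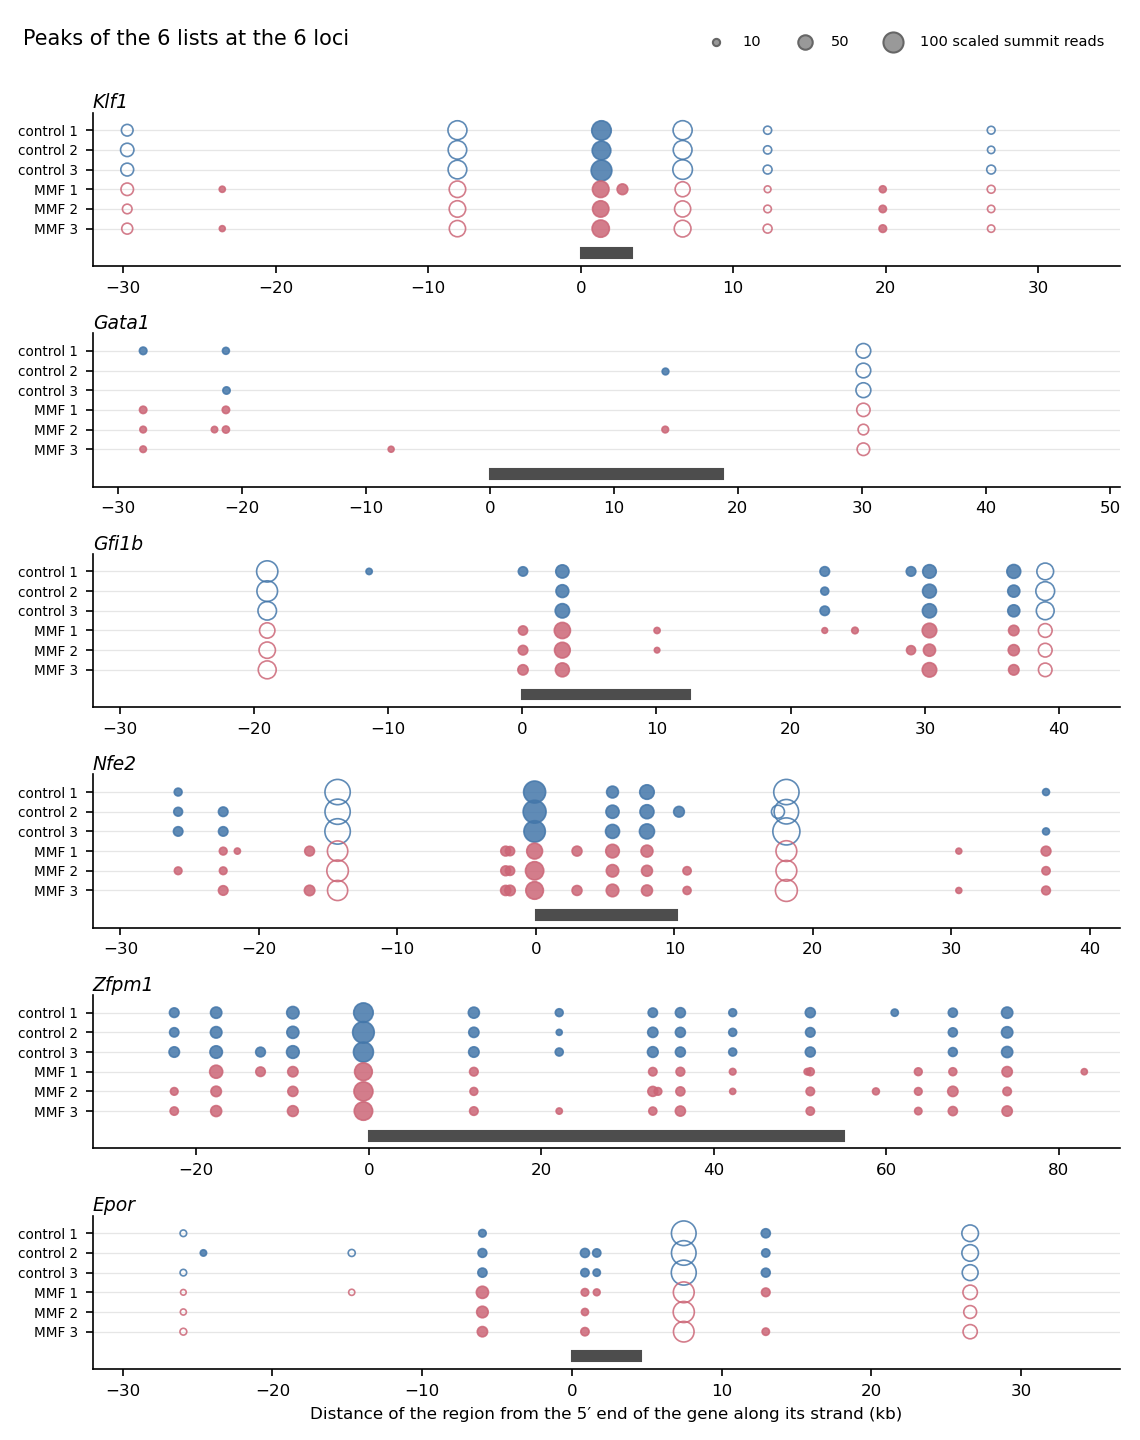
Peaks at the 6 loci in each of the 6 lists, by distance in kb from the 5′ end of the gene along its strand. Circle area follows scaled summit reads, blue is control and red is MMF, open circles are regions at the start of a neighbouring gene, and the grey bar is the gene. The Klf1, Nfe2 and Zfpm1 loci hold a strong region at or near the start of the gene in every list, while Gata1 has none.

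Of the 71 regions, 29 had a peak in all 6 lists, 38 in some lists of either or both groups, 4 in all 3 MMF lists and no control list (gained), and 0 in all 3 control lists and no MMF list (lost). Over all regions of the genome 6.0% were gained and 0.182% lost, so that 4 of 71 is near the background share. Without MMF 2 the count of gained regions was 8, and the share over all regions was 8.25%. A pair of gained regions stood next to each other upstream of Nfe2, at -2178 and -1864 bp from its start, at chr15:103260461-103260695 and chr15:103260140-103260353. The first held 30, 24 and 24 summit reads in the 3 MMF samples and the second 26, 21 and 26. The other gained regions were weaker. Of these, 1 lay 19809 bp downstream of the Klf1 start in introns of Dnase2a and Mast1 (13, 12 and 12 reads), and the other 63725 bp downstream of the Zfpm1 start, past the end of the gene (17, 13 and 11 reads).

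Of the 38 regions with peaks in some lists, few were strong, and 14 were in a single list. Within Klf1, an intronic region 2737 bp past the start (chr8:84904538-84904737) held 37 reads in MMF 1 and had no peak in the other lists. At an inner start of Nfe2, in a UTR 11 bp past that start (chr15:103255335-103255493), MMF 1 and MMF 3 held 31 and 23 reads, and no control list had a peak. At the far end of the Nfe2 locus, an intron of Cbx5, which encodes heterochromatin protein HP1 alpha, had peaks in 2 control lists (8 and 7 reads) and in every MMF list (30, 16 and 17 reads; chr15:103221392-103221756). Weak regions present more often in control lists included an intron of Copz1 at -25833 bp from the Nfe2 start, with 11, 14 and 15 reads in control and 13 in MMF 2 alone, and a Zfpm1 intron 22088 bp past the start, with 11, 5 and 10 reads in control and 7 in MMF 3 alone. These examples were picked after their values were seen, and no test was made where a list lacked the peak.

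Of the 29 regions in all 6 lists, 12 lay within 1000 bp of the start of another protein-coding gene (among them Gcdh and Dnase2a beside Klf1, Hdac6 beside Gata1, Tsc1 and Gtf3c5 beside Gfi1b, Copz1 and Hnrnpa1 beside Nfe2, and Swsap1 and Plppr2 beside Epor). The other 17 lay at the genes themselves, between genes or in introns of other genes (Gm20388 around Zfpm1, Rgl3 beside Epor). The neighbours' regions were the stronger, with a median of 68.5 scaled reads against 31.4.

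By limma, MMF samples were higher in 1 of the 29 regions, where 8.76% of all shared regions were called higher. They were lower in 17, where 25.3% of all shared regions were called lower. The remaining 11 were not called. All shared regions are not matched to the 29 for level or for promoters. Of the promoter regions of protein-coding genes, 61.5% were called lower on this scale. Away from neighbours' starts, 8 of 17 regions were called lower and 1 higher. MMF samples stood entirely below control samples in 18 regions (31.1% of all shared regions) and entirely above in 1 (12.5%). On the depth scale they stood entirely below in 9 (7.67% of all) and entirely above in 2 (29.1%). The median difference was -0.50 on the log2 scale. On the loess scale 3 of the 29 were called lower, against 6.18% of all shared regions, and 2 higher, against 9.78%. On the depth scale 2 were lower (3.08% of all) and 2 higher (21.8% of all), and by rank of fold enrichment 0 were lower (0.236% of all; 1 of the 29 at an unadjusted p under 0.05, limma) and 1 higher (7.72% of all). With the replicate number as a block, 1 was higher (8.78% of all) and 16 lower (25.4% of all). With a minimum of 15 mean reads, 2 members were higher (12.6% of the regions tested) and 13 lower (23.5%). Without MMF 2, the count of members called lower on the median scale was 9, and 7355 of 41742 shared regions were called lower overall. The members' median was -0.15 on the depth scale and -0.20 on the loess scale. Set against the median of their own level class, 20 of the 29 regions were below it and 9 at or above it. Most of this imbalance lay at the 12 neighbours' starts, with 11 below and 1 at or above. Of the other 17 regions, 9 were below and 8 at or above. In a bulk sample, fewer cells with an open site and fewer cuts per cell cannot be told apart.

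**Figure D2:**
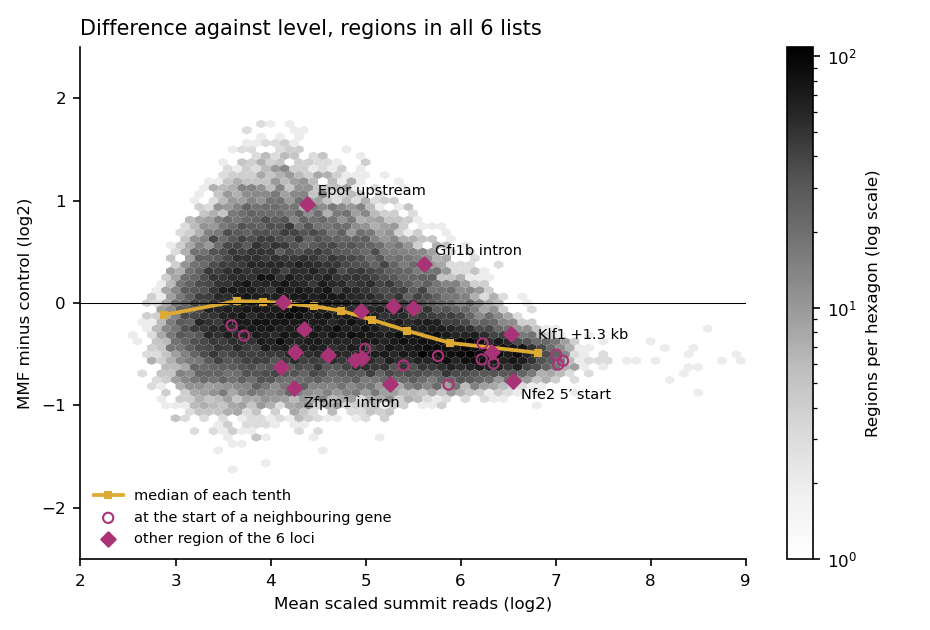
Difference between MMF and control (log2 of scaled summit reads) against the mean level over the 6 samples, for the 41182 regions in all 6 lists (grey hexagons, darker for more regions on a log scale) and the 29 regions of the 6 loci (purple). The yellow line joins the medians of 10 equal level classes. The Epor upstream region and the Gfi1b intron region are among the 9 of 29 at or above the median of their class. Of the 17 regions away from neighbours' starts, 9 are below that median and 8 at or above it.

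The region that was called higher lay upstream of Epor. Accessibility there rose with MMF on the median scale and on each other scale and measure tried. The region, chr9:21968960-21969678, has its summit at -5974 bp from the 5′ end of Epor (ENSMUSG00000006235.6, chr9:21958897-21963506, - strand), in an intron of Rgl3, which encodes a regulator of Ral GTPases. Control samples held 10, 14 and 14 summit reads and MMF samples 49, 35 and 25. After scaling these were 11.2, 16.4 and 18.2 in control and 34.5, 30.8 and 23.7 in MMF samples. The groups did not overlap, and MMF 3 was the sample nearest to the controls. The difference was 0.97 ± 0.24 (SE) on the log2 scale, a fold of 1.96 (limma, adjusted p = 0.0012). It was 1.33 on the depth scale (limma, adjusted p = 1.86e-05) and 0.96 on the loess scale (limma, adjusted p = 0.00323). The region's rank by summit reads within the lists rose from between 31 and 49.4% in control to between 71.7 and 84.3% in MMF samples. Ranks are taken within lists that were longer in MMF samples, so the change in rank is given as a description. By another rank, that of fold enrichment, 97.0% of all calls were in the higher direction. Regions of its level had a median difference of -0.03. A start of Rgl3 lies nearer to the summit than the 5′ end of Epor, at 4803 bp. Which gene the region serves was not tested.

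At Epor itself accessibility was low. A region at the inner of its annotated starts (chr9:21962459-21962766, in an intron) was in 2 control lists with 15 and 11 reads and in 3 MMF lists with 16, 11 and 15 reads. After scaling, the control values were 17.6 and 14.3 and the MMF values 11.3, 9.68 and 14.2. The lower control value and the highest MMF value nearly met, and with a control list missing no test was made. It ranked between 34.2 and 50.9% of the peaks of its lists by summit reads. Downstream of Epor the 2 regions in all 6 lists belonged to the starts of Swsap1 and Plppr2. Both were lower on the median scale, with log2 differences of -0.50 (limma, adjusted p = 8.19e-05) and -0.52 (limma, adjusted p = 0.00486), where the medians of their level classes were -0.49 and -0.39. The Swsap1 value turned to 0.06 on the loess scale, and the Plppr2 call was lost without MMF 2 (-0.35, adjusted p = 0.101).

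Gfi1b encodes a zinc finger repressor (ENSMUSG00000026815.14, chr2:28609450-28621982, - strand). Its strongest region away from other genes was in an intron 2951 bp past its start, at chr2:28618501-28619267. Control samples held 37, 33 and 38 reads there and MMF samples 90, 68 and 49, which were 41.4, 38.7 and 49.3 in control and 63.3, 59.8 and 46.4 in MMF samples after scaling. MMF 3 fell inside the control range on this scale. The difference of 0.38 ± 0.16 (SE) just missed the threshold (limma, adjusted p = 0.0504). On the depth scale the groups did not overlap and the difference was 0.74 (limma, adjusted p = 0.000252). On the loess scale it was 0.66 (limma, adjusted p = 0.00177), and by rank 0.49 score units (limma, adjusted p = 0.175). Its call thus depended on the scale, and it passed on the median scale without control 3 (adjusted p = 0.0209) or MMF 3 (adjusted p = 0.0147). The median difference of regions at its level was -0.27.

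The 5′ start of Gfi1b had a peak in more MMF than control lists. The peak at chr2:28621774-28622020 lay in the 5′ UTR 17 bp past a start and was in 1 control list with 17 reads and in all 3 MMF lists with 26, 23 and 25 reads. Scaled, the 1 control value of 19.0 lay within the MMF values of 18.3, 20.2 and 23.7. An opposite case lay 22537 bp past the 5′ end of the gene, at chr2:28599255-28599746, where the 3 control lists held 18, 11 and 15 reads and only MMF 1 held a peak, of 7 reads. This region was chosen for mention after its values were seen. Further downstream, a region 1611 bp from the start of Gtf3c5 (chr2:28585218-28585501) fell by 0.54 on the log2 scale (limma, adjusted p = 0.0256; -0.44 with adjusted p = 0.116 on the loess scale). That call was lost without control 1 or without any 1 of the MMF samples (adjusted p of 0.0558 to 0.148). The region at the start of Gtf3c5, a subunit of a general factor of RNA polymerase III, fell from 68.3, 86.8 and 77.8 scaled reads in control to 45.1, 44.9 and 43.6 in MMF samples. Its difference of -0.80 ± 0.14 (SE) was called lower on the median, depth and loess scales (limma, adjusted p = 1.41e-05, 0.0173 on the depth scale and 0.0186 on the loess scale). At the other edge of the locus, the start of Tsc1 was lower, with a log2 difference of -0.59 (limma, adjusted p = 0.000246) and -0.15 on the loess scale (adjusted p = 0.464).

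**Figure D3:**
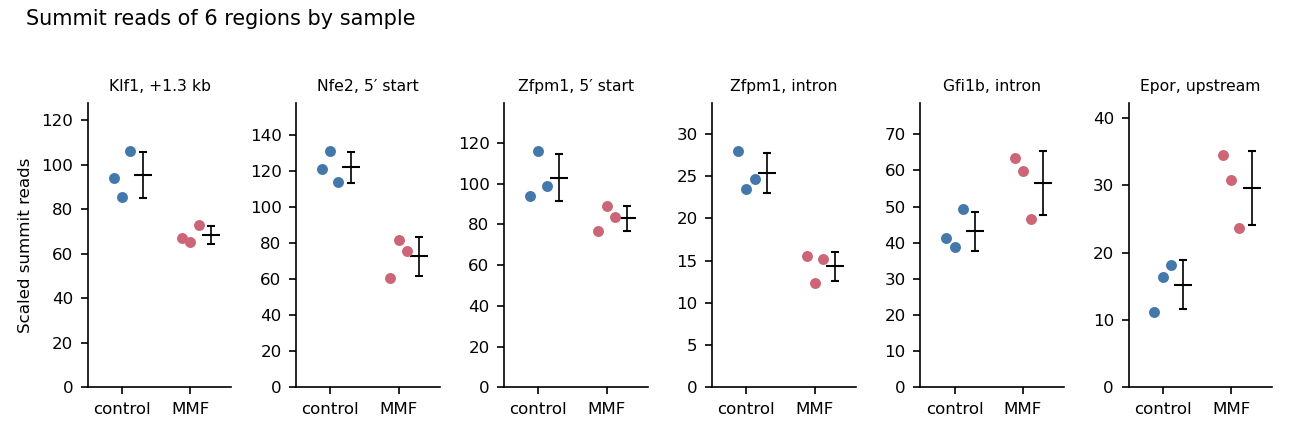
Scaled summit reads in each of the 3 control (blue) and 3 MMF (red) samples for 6 regions in all 6 lists, with the mean and SD of each group in black. The Epor upstream region is higher in every MMF sample (means 15.3 and 29.7), the Gfi1b intron region overlaps between groups, and in the other 4 regions MMF samples all lie below control samples.

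Nfe2, which encodes the p45 subunit of NF-E2 (ENSMUSG00000058794.12, chr15:103248212-103258403, - strand), had the most accessible start of the 6 genes in control samples. At chr15:103258030-103258760, with the summit at -87 bp from the start, control samples held 121, 131 and 114 scaled reads and MMF samples 60.5, 81.8 and 75.8. All MMF samples were below all control samples, on the depth scale as well. The difference was -0.76 ± 0.12 (SE) on the log2 scale, a fold of 0.592 (limma, adjusted p = 1.29e-06). It was -0.40 on the depth scale (limma, adjusted p = 0.00902) and -0.27 on the loess scale (limma, adjusted p = 0.0997), where the call was lost. Before scaling, the reads were 108, 112 and 88 in control and 86, 93 and 80 in MMF samples. The region stayed between the 95.1 and 98.6% ranks of its lists by summit reads.

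Inside Nfe2, 2 further regions were in all 6 lists. At chr15:103250231-103250507, in an intron 8028 bp from the 5′ end, control samples held 50.4, 46.9 and 54.5 scaled reads and MMF samples 33.1, 27.3 and 27.5. The groups did not overlap, and the difference of -0.79 ± 0.17 (SE) was called lower on the median scale (limma, adjusted p = 0.000285) and on the loess scale (-0.61, adjusted p = 0.0105), with -0.44 on the depth scale (adjusted p = 0.0581). At chr15:103252671-103253063, at -53 bp from an inner start of the gene, the scaled reads were 32.5, 41.1 and 46.7 in control and 43.6, 36.1 and 37.0 in MMF samples. These overlapped, with a difference of -0.03 ± 0.18 (SE; limma, adjusted p = 0.907). The difference between these neighbouring regions was not tested. At the neighbours, the start of Copz1 was lower, with a log2 difference of -0.60 (limma, adjusted p = 5.31e-06; -0.03 on the loess scale) and that of Hnrnpa1 of -0.56 (adjusted p = 1.63e-05; 0.01 on the loess scale).

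Zfpm1 encodes FOG1, the partner of GATA1 (ENSMUSG00000049577.15, chr8:122282141-122337251, + strand). Its locus held 9 regions in all 6 lists, none at the start of another protein-coding gene, although a long transcript, Gm20388, overlaps the whole locus. The region at the 5′ start, chr8:122281045-122282163, held 94.1, 116 and 98.6 scaled reads in control and 76.7, 88.9 and 83.4 in MMF samples. MMF samples were below control samples on this scale, with a log2 difference of -0.31 ± 0.12 (SE; limma, adjusted p = 0.0365), but the difference was 0.05 on the depth scale (adjusted p = 0.819) and 0.17 on the loess scale (adjusted p = 0.324), so its direction depended on the scale. The call was also lost when any 1 sample other than control 1 was left out (adjusted p of 0.0825 to 0.194).

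At Zfpm1, 3 other regions were called lower. The region with the GATA and CACCC letters above, chr8:122294200-122294609, is in an intron 12189 bp past the start and held 28.0, 23.5 and 24.6 scaled reads in control and 15.5, 12.3 and 15.2 in MMF samples. The groups did not overlap, with a difference of -0.83 ± 0.25 (SE), a fold of 0.563 (limma, adjusted p = 0.00641), and -0.85 on the loess scale (adjusted p = 0.0111). On the depth scale MMF samples were again all lower, with a difference of -0.47 (adjusted p = 0.16). Regions of its level had a median difference of -0.00497. Leaving out MMF 2 ended the call (-0.67, adjusted p = 0.0588). A region at -8797 bp from the start (chr8:122272992-122273517) was lower, with a log2 difference of -0.55 ± 0.20 (SE; limma, adjusted p = 0.0244; loess scale -0.47, adjusted p = 0.0967), a call that was lost without control 3, MMF 1 or MMF 2 (adjusted p of 0.0681 to 0.121). A further region at -355 bp from an inner start (chr8:122333194-122333476) was lower, with a log2 difference of -0.62 ± 0.26 (SE; limma, adjusted p = 0.0492; loess scale -0.66, adjusted p = 0.0661), a call that was lost with any 1 sample left out (adjusted p of 0.0592 to 0.15). The strongest region outside the start, at -17691 bp, overlapped between groups (29.1, 30.5 and 36.3 scaled reads in control, 40.1, 24.6 and 27.5 in MMF samples, -0.08 ± 0.20 SE).

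Klf1 encodes the erythroid Krüppel-like factor (ENSMUSG00000054191.8, chr8:84901928-84905291, + strand). One strong region covered part of the gene, chr8:84902750-84903635, with the summit in an exon 1311 bp past the start, and its edge reached within 1000 bp of that start. Control samples held 94.1, 85.6 and 106 scaled reads and MMF samples 66.9, 65.1 and 73.0. All MMF samples were below all control samples, with a difference of -0.48 ± 0.12 (SE) on the log2 scale, a fold of 0.718 (limma, adjusted p = 0.00197). The median of its level class was -0.49, and the difference was -0.12 on the depth scale (adjusted p = 0.524) and -0.04 on the loess scale (adjusted p = 0.881). Beside Klf1, the starts of Gcdh, an enzyme of lysine breakdown, and Dnase2a, the nuclease that digests the DNA of expelled erythroblast nuclei, were lower, with log2 differences of -0.39 (limma, adjusted p = 0.0113) and -0.55 (adjusted p = 0.000587) on the median scale, and 0.02 and -0.13 on the loess scale. The Gcdh call was lost without MMF 2 (-0.35, adjusted p = 0.0619).

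Gata1 (ENSMUSG00000031162.14, chrX:7959260-7978071, - strand) was the least accessible of the 6. No region within its body was in more than 2 lists. The peak nearest to one of its starts, chrX:7963811-7964019, 247 bp past an inner start, was called in control 2 with 7 reads and in MMF 2 with 9 reads. It ranked 12.9 and 23.8% in those lists by summit reads. Upstream, a region at -27938 bp from the 5′ end, in an intron of Glod5 (chrX:8005649-8006138), was in 1 control list with 10 reads and in all 3 MMF lists with 15, 9 and 8. A region at -21267 bp (chrX:7999153-7999470) was in 2 lists of each group, with 8 and 8 reads in control and 15 and 11 in MMF samples. The single region of the locus in all 6 lists was the start of Hdac6, a cytoplasmic deacetylase, at chrX:7947712-7948413. It was lower in MMF samples, with a log2 difference of -0.61 ± 0.17 (SE; limma, adjusted p = 0.00411), with 51.5, 51.6 and 53.2 scaled reads in control and 42.2, 25.5 and 37.0 in MMF samples. The call was not made on the depth scale, where the groups overlapped (-0.25, adjusted p = 0.299), or on the loess scale (-0.39, adjusted p = 0.113), and leaving out MMF 2 ended it (-0.35, adjusted p = 0.147).

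Across the 6 genes the levels of regions reaching within 1000 bp of a start fell into strong and weak groups in both treatments. For Klf1 only the edge of the region reaches that far, and its summit lies in an exon 1311 bp past the start. By mean scaled reads in control samples, Nfe2 (122 ± 8.71, SD, n = 3), Zfpm1 (103 ± 11.7, SD, n = 3) and Klf1 (95.3 ± 10.4, SD, n = 3) were the highest, with the spreads of neighbours in that order overlapping. In MMF samples the order was Zfpm1 (83.0 ± 6.08, SD, n = 3), Nfe2 (72.7 ± 11.0, SD, n = 3) and Klf1 (68.3 ± 4.12, SD, n = 3), again with overlapping spreads. Gfi1b, at 18.3 to 23.7 scaled reads in the 4 lists that held it, Epor at 9.68 to 17.6 in 5 lists and Gata1 at 7.92 and 8.21 in 2 lists followed. A region in all 6 lists within 1000 bp of a start was present at 3 of the 6 genes, against 55.4% of 21911 protein-coding genes, and a peak in at least 1 list at 6 of 6, against 65.9%. All 3 were called lower on the median scale, as were 61.5% of the 12128 such promoter regions (1.24% were higher). On the loess scale 0 of the 3 were called lower (limma; 1 at an unadjusted p under 0.05) and 0 higher, against 8.29% and 1.99% of all. Over the 6 samples, the mean log2 value of these 3 promoter regions was most closely followed by those of Zmym5, Man2c1 and Tacc3 (Pearson r of 0.9995, 0.9987 and 0.9984). These were picked from 12128 genes, 94 of which had r above 0.99. The 6 points share the step between the groups, so these values describe likeness only.

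Most other erythroid genes had a promoter peak in at least 1 list, and several effector genes were among those without. Of 62 other erythroid genes found in the annotation, 37 (59.7%) had a promoter region in all 6 lists. A further 12 had peaks but no such region, and 13 had no promoter peak in any list. Over all protein-coding genes, 55.4% had such a region and 7469 of 21911 had no promoter peak. The 13 included Alas2 (the first enzyme of heme synthesis in red cells), Slc4a1 (the anion exchanger band 3), Epb42 (membrane skeleton), Rhag and Kel (blood group proteins), and the globin genes Hba-a1, Hba-a2 and Hbb-bs. Reads from near-identical globin copies may not map to a single place, so their absence is uncertain. Of the 37, limma called 21 lower and 0 higher on the median scale (0 higher and 25 lower at an unadjusted p under 0.05), where 61.5% of all promoter regions were lower and 1.24% higher. On the loess scale it called 7 lower and 0 higher (1 higher unadjusted), against 8.29% and 1.99% of all. By rank of fold enrichment it called 0 in either direction (5 lower and 0 higher unadjusted), against 0.236% lower and 7.72% higher of all shared regions. By rank of p it called 1 lower and 0 higher, against 119 and 6420 of 41182 shared regions. On the depth scale it called 3 lower and 1 higher, against 3.08% and 21.8% of all shared regions. For the ranks and the depth scale the shares are over all shared regions, most of which are not promoters. A share over promoter regions alone is not given for them, so these counts are not compared with like regions. A fall of the list as a whole thus depended on the scale. The median difference of the 37 was -0.50, against -0.45 over the promoter regions of all protein-coding genes, and -0.20 against -0.11 on the loess scale.

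Among the genes of both lists with a promoter region in all 6 lists, the largest falls on the median scale were at Sptb, Tfrc and Tfr2. Sptb, the erythroid spectrin beta chain, held 13.4, 11.7 and 19.5 scaled reads in control and 7.04, 8.80 and 6.63 in MMF samples (-0.97, limma, adjusted p = 0.0078; loess scale -0.92, adjusted p = 0.0222; depth scale -0.61, adjusted p = 0.125). Its MMF peaks were weak, ranking 17.8, 29.3 and 11.9% of their lists by summit reads, so its fall rests on few reads. Tfrc, the transferrin receptor that brings iron into erythroblasts and other dividing cells, fell from 112, 130 and 122 to 57.7, 68.6 and 60.6 (-0.96, limma, adjusted p = 2.67e-09), was called lower on the depth scale (-0.61, adjusted p = 9.17e-05) and the loess scale (-0.50, adjusted p = 0.00181), and had no overlap between groups. For Tfr2, the second transferrin receptor, the region in all 6 lists differed by -0.91 (limma, adjusted p = 0.00622). The limma differences were -0.95 (adjusted p = 0.0101) on the loess scale and -0.56 (adjusted p = 0.126) on the depth scale. The highest promoter peak of Tfr2 was not this region in every list, and the highest peaks differed by -0.86. The strongest promoter region of Cbfa2t3, which encodes the corepressor ETO2, was not in all 6 lists and was not tested. The highest promoter peak of each list held 37.0, 29.3 and 31.1 scaled reads in control against 14.1, 15.8 and 4.74 in MMF samples. The promoter of Hemgn, which encodes a nuclear protein of hematopoietic cells, was in 0 control and 3 MMF lists, at 9.86, 15.8 and 17.1 scaled reads, and was picked for mention after its values were seen.

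Of 32 megakaryocyte genes, 17 (53.1%) had a promoter region in all 6 lists and 6 had other peaks. The other 9 had none, among them Gp5 and Gp6 (platelet receptors), Ppbp and Tubb1. Over all protein-coding genes, 55.4% had such a region and 7469 of 21911 had no promoter peak. Of the 17, limma called 7 lower and 0 higher on the median scale (7 and 0 at an unadjusted p under 0.05), against 61.5% and 1.24% of all promoter regions. It called 1 lower and 1 higher on the loess scale, against 8.29% and 1.99% of all. On the depth scale it called 1 lower and 3 higher, against 3.08% and 21.8% of all shared regions. By rank of fold enrichment it called 0 in either direction (1 lower and 0 higher unadjusted), against 0.236% and 7.72% of all shared regions. By rank of p it called 0 lower and 1 higher, against 119 and 6420 of 41182 shared regions. As for the erythroid list, the shares for the depth scale and the ranks are not over promoter regions alone. The median difference of the 17 was -0.37, against -0.45 over all protein-coding genes, and 0.01 against -0.11 on the loess scale. Among the genes so tested, the largest rises of both lists were Trf (transferrin, 0.39), F2rl2 (a thrombin receptor, 0.37) and Thbs1 (thrombospondin, 0.27), none of which passed on the median scale (limma, adjusted p = 0.25, 0.268 and 0.345). On the depth scale all of them did (0.75, 0.73 and 0.62, limma, adjusted p = 0.0282, 0.0297 and 0.0241). The highest promoter peak of F2rl2 was not the tested region in every list. Its highest peaks differed by 0.46 on the median scale, more than the value of Trf. On the loess scale Runx1 was the gene called higher (0.48, adjusted p = 0.0117; 0.11 on the median scale) and Meis1 the gene called lower (-0.39, adjusted p = 0.0428).

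**Figure D4:**
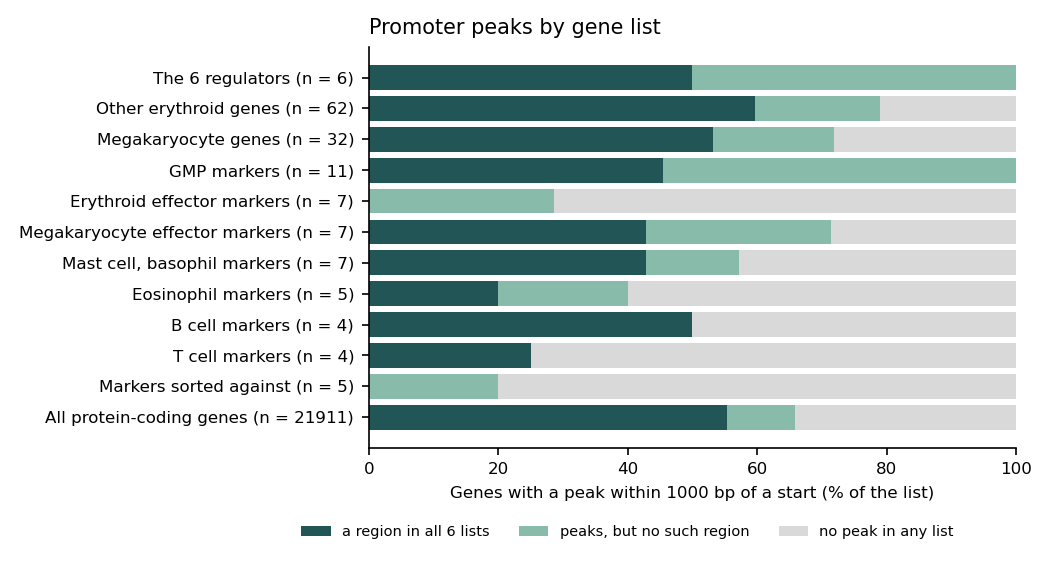
Promoter peaks (within 1000 bp of an annotated start) by gene list, as percent of the genes found in the annotation (n in brackets). Dark bars are genes with 1 region in all 6 lists, light bars genes with peaks but no such region, and grey bars genes with no peak; all 6 regulators and all 11 GMP markers have a peak, while 5 of 7 erythroid effector markers have none.

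Markers fitted the labelled cell type only in part. All 11 markers of granulocyte-macrophage progenitors had a promoter peak in at least 1 list, against 65.9% of protein-coding genes. A region in all 6 lists was present at 5 of them (Fcgr3, Cebpa, Spi1, Ctsg and Kit), or 45.5%, against 55.4% of protein-coding genes. Elane had a promoter peak in 1 control and 3 MMF lists, and Prtn3 in 3 control lists and 1 MMF list. Of 5 markers that the sort gates against, 4 had no promoter peak. Of 7 erythroid effector markers 5 had no peak and 2 were weak. Summed over the list, scaled reads ran from 0 to 16.4 in control and from 0 to 7.04 in MMF samples. Megakaryocyte effector markers had peaks in 5 of 7 genes, with Itga2b, Vwf and Pf4 in all 6 lists and Gp5 in none. Their sum was 105 to 117 in control and 86.2 to 92.9 in MMF samples. These sums are on the median scale, where 61.5% of all promoter regions were called lower. Sums of the granulocyte-macrophage markers were also lower, at 521 to 575 in control and 429 to 432 in MMF samples. Of the 3 genes in all 6 lists, 1 was called lower, Itga2b (-0.45, limma, adjusted p = 0.0198). It was not called on the loess scale (-0.16, limma, adjusted p = 0.505). Mast cell and basophil markers, some of which share GATA factors with the erythroid lineage, had peaks in 4 of 7 genes with sums of 84.3 to 89.6 in control and 82.4 to 89.4 in MMF samples, and Ms4a2, Prss34 and Fcer1a had none. Eosinophil markers had peaks in 2 of 5 genes (sums of 28.5 to 41.4 and 26.0 to 36.1), B cell markers in 2 of 4 (Pax5 and Ebf1 but not Cd79a, sums of 51.9 to 65.7 and 41.5 to 44.9) and T cell markers in 1 of 4 (Lck, 38.9 to 52.8 and 28.2 to 40.8). The part of such cells in the results above was not tested.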

How the data were processed

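ATAC-seq was measured in 3 control and 3 MMF-treated L-GMP samples. The authors trimmed reads (Trim Galore), used Bowtie2 for mapping to mm10 and MACS2 for peaks in every sample separately, versions and options not given in the sources used here. The deposited lists hold fold enrichment (a ratio to local background), −log10 p and q, and a score that repeats the p and was not used. Peaks outside the autosomes, X and Y (0.225 to 0.270% of a list) were left out. Summit reads were solved from fold enrichment, (reads + 1) / (background + 1), and the Poisson p, within a tolerance of 0.0001, for at least 99.998% of peaks. Peaks of all lists that overlapped by at least 1 bp were joined into regions. Shared regions were tested with limma 3.58.1 (lmFit, eBayes with trend) in R 4.3.3 without a block; the solving and the test were tested on simulated data. Replicate numbers were checked for pairing, and correlations of deviations between same-numbered samples were -0.00127, 0.00388 and -0.00256. They lay within the -0.00548 to 0.00672 of samples with other numbers. With few reads per region this check may miss a shared origin, so pairing was not settled. Alternatives were the depth scale, ranks by fold enrichment or p (normal scores), q and read minimums, equal list lengths, a block, narrower windows, no neighbours' starts and leaving out each sample, with cyclic loess added after the data were seen. Members and gene lists were chosen with earlier results of these data known. The text names each gene's promoter region, its strongest, gained and called regions, the 3 listed genes with the largest rise and fall, and the 3 most alike genes. No 2 lists shared more than 681 identical intervals. Sequences come from GRCm38. Some listed genes are counted but not named here.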

Additional observations from a re-analysis of the deposited data

How the results depend on the processing

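The count of member regions called higher (1) was 2 on the depth scale, on the loess scale, by rank of −log10 p, with mean reads of at least 15, with −log10 q of at least 2 and with equal list lengths, the second being the Gfi1b intron, and 0 within 5 kb of the genes, which leaves out the Epor region. With 1 sample left out it was 1 to 2. The count called lower (17) was 2 on the depth scale, 3 on the loess scale, 0 by either rank (1 at an unadjusted p under 0.05 by each, limma), 8 within 5 kb and 8 without the neighbours' starts, and 9 to 16 with 1 sample left out, the lowest without MMF 2. Over all shared regions the calls were 3608 higher and 10433 lower, but 8959 and 1268 on the depth scale, 4029 and 2543 on the loess scale, 3180 and 97 by rank of fold enrichment and 6420 and 119 by rank of p. Gained regions (4) were 1 with equal list lengths, 2 within 5 kb and 4 to 8 with 1 sample left out, the highest without MMF 2. Lost regions (0) were 2 with equal list lengths, 1 with 50% of a region covered, and 0 to 1 with 1 sample left out. Over all regions of the genome, 2.35% were gained and 1.37% lost with equal list lengths. With 50% of a region covered, 0.310% of all regions were lost. With 1 sample left out, 7.37 to 9.34% of all regions were gained and 0.309 to 0.518% lost. The surplus of 8.33 peaks in MMF lists was -2.67 with equal list lengths (exact permutation p = 0.2) and 4.33 within 5 kb.

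The difference of the Klf1 exon region (-0.48) was -0.12 on the depth scale, -0.16 by rank of fold enrichment, 0.024 by rank of p and -0.036 on the loess scale. For Nfe2 (-0.76) it was -0.40 and -0.33 by the ranks and -0.27 on the loess scale. Zfpm1 (-0.31) was 0.047 on the depth scale, 0.016 and 0.23 by the ranks, 0.17 on the loess scale, -0.22 with mean reads of at least 15, -0.27 with the q minimum, -0.26 with equal lengths and -0.39 to -0.22 with 1 sample left out. Among single regions, signs turned at Gcdh (0.15 by rank of p, 0.024 loess), Gfi1b near Gtf3c5 (0.092 by rank of fold enrichment), Hnrnpa1 (0.061 and 0.093 by the ranks, 0.0090 loess), Zfpm1 at -17691 bp (0.27 depth, 0.30 and 0.28 by the ranks, 0.019 loess, 0.0011 with the read minimum, -0.29 to 0.11 with 1 sample left out, above 0 without control 3, MMF 2 or MMF 3), Swsap1 (0.085 by rank of p, 0.058 loess) and Plppr2 (0.038 by rank of p). The cause was not tested. The Epor upstream call held under every alternative run in which the region was tested. With the replicate number as a block the higher and lower calls were 3614 and 10463, and 1 member call, Zfpm1 near its inner start, missed the threshold (-0.62, limma, adjusted p = 0.0529). A 500-bp promoter was not run for Klf1, which has no such region in all 6 lists.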
